A study of Homo sapiens with 4 samples.

Results

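The 28 genes described here make cholesterol and fatty acids or control their synthesis, and were measured in 2 cell lines of head and neck squamous cell carcinoma (HNSCC) and their cisplatin-resistant derivatives. They were listed by name from known functions, and all 28 of them were found among the 43305 gene names that had a value on the arrays. The list holds 7 genes of the mevalonate pathway, 10 genes of the squalene and sterol steps, 4 regulators and sterol transfer genes, 3 genes of fatty acid synthesis, and 4 genes of fatty acid elongation and desaturation. The study looked for genes associated with cisplatin resistance, cisplatin being a platinum drug that binds and damages DNA.

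HN4 and HN30 are established human HNSCC lines, grown in DMEM with fetal bovine serum, and the labels list no drug for them. HN4/DDP was derived from HN4, and HN30/DDP from HN30, by raising the cisplatin concentration stepwise, and the labels give a culture of 48 h in 20 μM cisplatin for both derivatives. Whether the drug was still in the medium when RNA was taken is not stated in the labels, so selection for resistance and exposure to the drug cannot be told apart in these arrays. Each of the 4 conditions was measured once, on 1 one-colour Agilent expression array, so each derivative is represented by 1 culture, and precision is limited by having so few arrays.

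Cells make cholesterol from acetyl-CoA through the mevalonate pathway, squalene and lanosterol, and make fatty acids from acetyl-CoA through malonyl-CoA, followed by elongation and desaturation. The transcription factors SREBP-1 and SREBP-2, encoded by SREBF1 and SREBF2, switch on most of these genes when sterols in the endoplasmic reticulum are low. When sterols are abundant, INSIG proteins hold the SREBP carrier SCAP in the endoplasmic reticulum and the genes are expressed less, which is why the genes of the pathway often move as a group.

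The promoter sequences below are shown because SREBPs act on such regions together with the factors that bind CCAAT and GC boxes. They belong to SREBF2, the only member whose window held the classical sterol regulatory element, to INSIG1 and HMGCS1, the members furthest apart between the parental lines, to LSS and FDPS, the lowest members in HN4/DDP relative to HN4, and to ELOVL6, the lowest in HN30/DDP relative to HN30. Each is the 250 bases before a transcription start in RefSeq on GRCh38.p14, read 5′ to 3′ on the strand of the gene. Capitals mark CCAAT boxes on either strand and, in SREBF2, the sterol regulatory element, so that CCAAT on the opposite strand reads ATTGG.
SREBF2 promoter, chr22:41832855-41833104, + strand: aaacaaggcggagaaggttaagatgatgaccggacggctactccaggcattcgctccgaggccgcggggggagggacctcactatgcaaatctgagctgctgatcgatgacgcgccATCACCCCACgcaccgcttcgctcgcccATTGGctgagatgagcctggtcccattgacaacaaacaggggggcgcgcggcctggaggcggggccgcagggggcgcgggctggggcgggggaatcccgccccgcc
INSIG1 promoter, chr7:155297628-155297877, + strand: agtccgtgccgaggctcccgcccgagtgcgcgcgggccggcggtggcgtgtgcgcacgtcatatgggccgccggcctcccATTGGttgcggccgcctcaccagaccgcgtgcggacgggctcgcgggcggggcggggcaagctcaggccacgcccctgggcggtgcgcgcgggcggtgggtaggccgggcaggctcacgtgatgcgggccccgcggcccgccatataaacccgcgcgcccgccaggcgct
HMGCS1 promoter, chr5:43313413-43313662, - strand: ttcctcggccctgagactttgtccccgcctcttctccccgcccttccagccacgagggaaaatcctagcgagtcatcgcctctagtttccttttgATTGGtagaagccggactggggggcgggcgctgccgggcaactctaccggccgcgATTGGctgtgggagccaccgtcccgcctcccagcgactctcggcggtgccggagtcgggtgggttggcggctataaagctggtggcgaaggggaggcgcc
FDPS promoter, chr1:155308616-155308865, + strand: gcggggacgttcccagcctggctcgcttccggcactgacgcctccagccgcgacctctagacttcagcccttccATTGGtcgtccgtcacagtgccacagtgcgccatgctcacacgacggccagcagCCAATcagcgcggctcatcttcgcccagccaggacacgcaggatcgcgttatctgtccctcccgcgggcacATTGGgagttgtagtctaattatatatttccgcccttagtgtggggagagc
LSS promoter, chr21:46228775-46229024, - strand: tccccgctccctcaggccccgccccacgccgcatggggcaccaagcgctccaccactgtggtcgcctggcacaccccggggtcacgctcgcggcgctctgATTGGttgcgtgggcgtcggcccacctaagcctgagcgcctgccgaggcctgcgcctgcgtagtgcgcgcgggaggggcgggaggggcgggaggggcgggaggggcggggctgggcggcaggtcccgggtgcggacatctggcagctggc
ELOVL6 promoter, chr4:110198616-110198865, - strand: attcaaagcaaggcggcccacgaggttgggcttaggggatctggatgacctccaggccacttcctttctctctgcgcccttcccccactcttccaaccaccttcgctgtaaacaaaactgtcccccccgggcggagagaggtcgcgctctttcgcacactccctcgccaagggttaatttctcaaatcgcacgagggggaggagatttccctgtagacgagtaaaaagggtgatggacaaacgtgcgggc

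Promoters of 24 of the 28 members were found in the RefSeq table. ACAT2, FASN, FDFT1 and SQLE had no entry there. The motifs were searched on both strands from 250 bases before to 50 bases after each start, in 33 promoters of the members and in all 35116 promoters of the table. The CCAAT box was present in 23 of the 33 member promoters, or 69.7%, against 34.6% of all promoters, and 19 members (79.2%) had it in at least 1 promoter, against 42.1% of coding genes. The GC box GGGCGG was present in 29 of the 33, or 87.9%, against 45.0% of all promoters, and in 95.8% of the members against 64.3% of coding genes. The E-box CACGTG was found in 3 members, INSIG1, LSS and SC5D, or 12.5%, which is near the 10.9% of coding genes. A loose form of the sterol regulatory element, TCACNCCAC, was found in 1 member, SREBF2, and in 1.13% of all promoters. The classical element, which is this motif with C at its N and A before it, overlaps it at the same site, 134 bases before the start of SREBF2, and was present in 0.0456% of all promoters. These matches describe letters in a window and are not measured binding sites.

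All 28 members were well above background on all 4 arrays, and no spot was saturated. Across the arrays 55.3% to 63.6% of spots were well above background, most in HN30/DDP, and all arrays lay on the same slide and were read in the same scan. A level is given below as log2 of the processed spot intensity minus the 75th percentile of its array, taken for each gene from the probe with the highest mean, and a difference is a subtraction of levels of the same probe. The probes lie at chr7:155101843-155101902 for INSIG1, chr5:43290117-43290176 for HMGCS1, chr1:155290269-155290328 for FDPS, chr21:47609299-47609358 for LSS and chr4:110971171-110971230 for ELOVL6 on hg19, the build of the scanner files, and whether they lie in coding or untranslated sequence was not analysed here. Levels of different genes were not compared, since each probe has its own brightness. The scanner SD of a member's difference, which covers error within the arrays only, was 0.20 to 0.24. No difference between single arrays has a replicate check, so a member was counted as higher or lower when its log2 difference was beyond 1, or 2-fold, and the same count over all genes is given as the background. Differences also mix the cells' own expression with the makeup of the culture, and fewer expressing cells cannot be told apart from less RNA per cell. Squamous epithelial markers were well above background for 6 of 6 genes in HN4, HN4/DDP and HN30 and for 5 of 6 in HN30/DDP, where KRT6A, a keratin of activated epithelium, was not well above background. Their levels moved widely. In HN4/DDP 3 of the 6 were beyond 2-fold higher, with KRT6A at 3.33, and KRT5, a basal keratin, was lower at -4.04. In HN30/DDP KRT5 differed by -1.93 and KRT6A was at least 183-fold lower, and between the parental lines 2 were beyond 2-fold higher in HN30, with KRT6A at 5.53. The part of these changes in the members' differences was not tested.

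**Figure D1:**
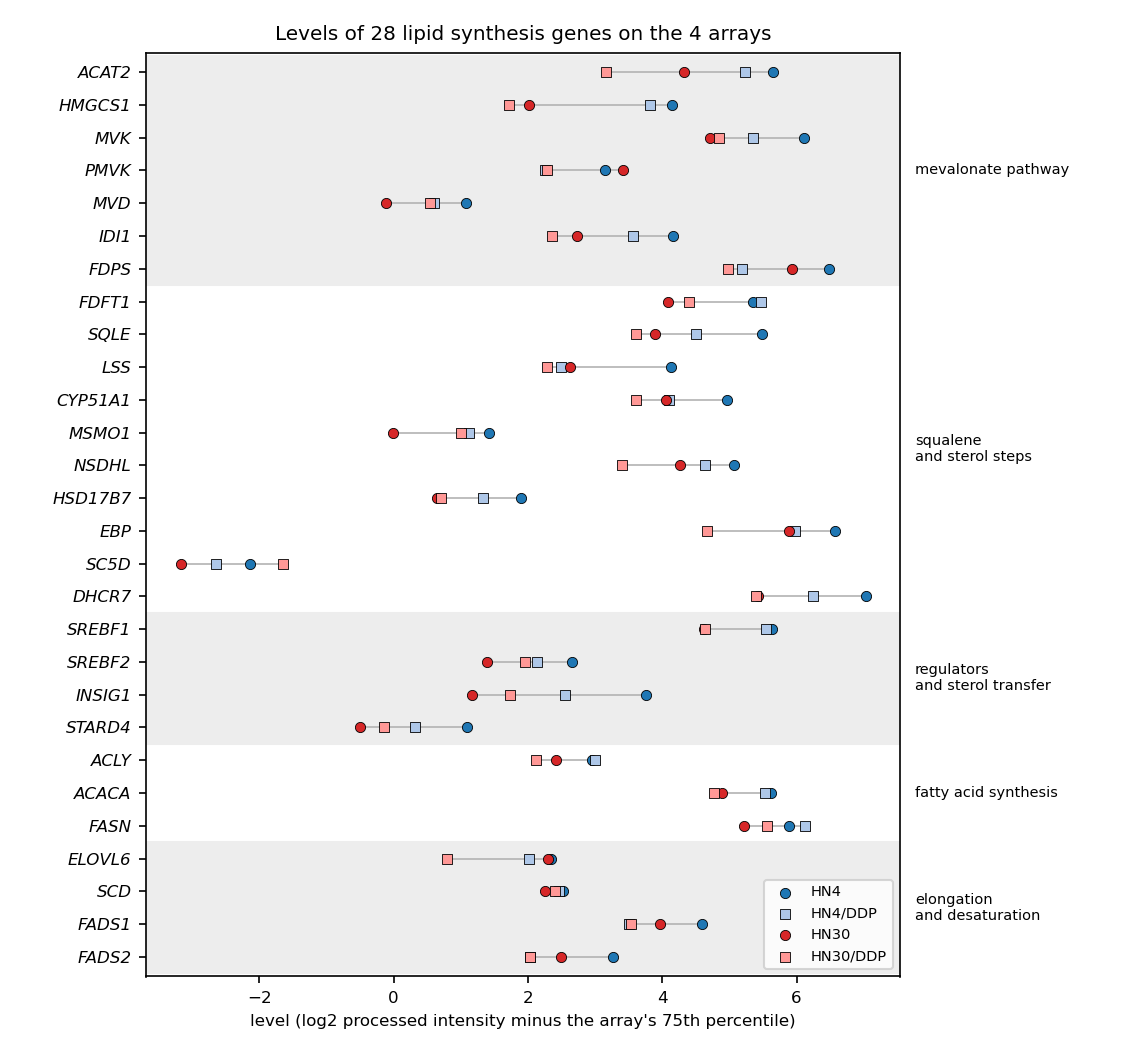
Level of each of the 28 genes (log2 processed intensity minus the 75th percentile of the array, horizontal axis) on the 4 arrays, with 1 point per array and no error bar because each condition was measured once. HN4, the dark blue circle, is the highest point for 23 of the 28 genes.

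The widest difference of the members lay between the 2 parental lines. Of the 28 genes, 27 had a lower level in HN30 than in HN4, against 45.7% of all genes well above background on both arrays, and their median difference was -1.12, while the median of those 22858 genes was 0.04. The difference was beyond 2-fold lower for 16 members and beyond 2-fold higher for 0, against a background of 7.19% lower and 3.27% higher among genes well above background on at least 1 of these arrays. The 4 regulators and sterol transfer genes and 12 of the 17 cholesterol synthesis genes were among the 16, and 0 of the 7 fatty acid genes was. SREBF1 depended on the probe used, since it was at -1.01 but at -0.43 as the mean of its probes. The median lay between -1.01 and -1.19 under every scaling, background correction and probe choice that was tried, and 26 members stayed below 0 throughout. PMVK, phosphomevalonate kinase, had a difference of 0.27, and the direction of ELOVL6 depended on the alternative.

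In HN4/DDP, 25 of the 28 members had a lower level than in HN4, against 57.4% of all genes well above background on both arrays, and the median difference was -0.54 against -0.09 for all genes. The count of members beyond 2-fold was 5 lower and 0 higher, against a background of 8.57% lower and 9.39% higher. The 5 were LSS, FDPS, FADS2, INSIG1 and FADS1, with FADS1 just inside the threshold at -1.08 (-0.98 after quantile normalization and in the deposited table, which leaves 4) and SQLE just outside it at -0.99. The other 20 members below 0 differed by less than 2-fold. The number of members below 0 was 22 to 25 under the alternatives, and ACACA, SCD and SREBF1 were the 3 members whose direction depended on the alternative. This comparison and that of the parental lines use the same single HN4 array.

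In HN30/DDP the members had no common direction against HN30 with the scaling used here, and the split depended on the scaling. Of the 28, 16 (57.1%) were lower and 12 were higher, a share near the 53.9% lower among all genes well above background on both arrays, and the median difference was -0.20 with the scaling used here, but 0.16 after quantile normalization, 0.17 in the authors' deposited table, 0.21 after removal of the trend with brightness and -0.61 after centring on the median. With median centring 23 members lay below 0 and 6 were beyond 2-fold lower. The median of all genes itself moved to -0.48 there, from -0.07. Members below 0 numbered 10 in the deposited table and 9 after removal of the trend. With the scaling used here the members beyond 2-fold were 4 lower, ELOVL6, EBP, ACAT2 and PMVK, and 2 higher, SC5D and MSMO1. Of the 4, ELOVL6 alone was beyond 2-fold under every alternative with this threshold. EBP (-0.67), ACAT2 (-0.73) and PMVK (-0.78) were not after quantile normalization, nor in the deposited table or after removal of the trend. Both shares are near or under the background of 13.3% lower and 19.7% higher. MSMO1 at 1.01 was just inside the threshold, and FDPS at -0.94 was just outside it. The direction held under every alternative for 14 members, 9 of them lower (ACAT2, EBP, ELOVL6, FADS2, FDPS, HMGCS1, IDI1, NSDHL and PMVK) and 5 of them higher (INSIG1, MSMO1, MVD, SC5D and SREBF2), and depended on the alternative for the other 14.

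**Figure D2:**
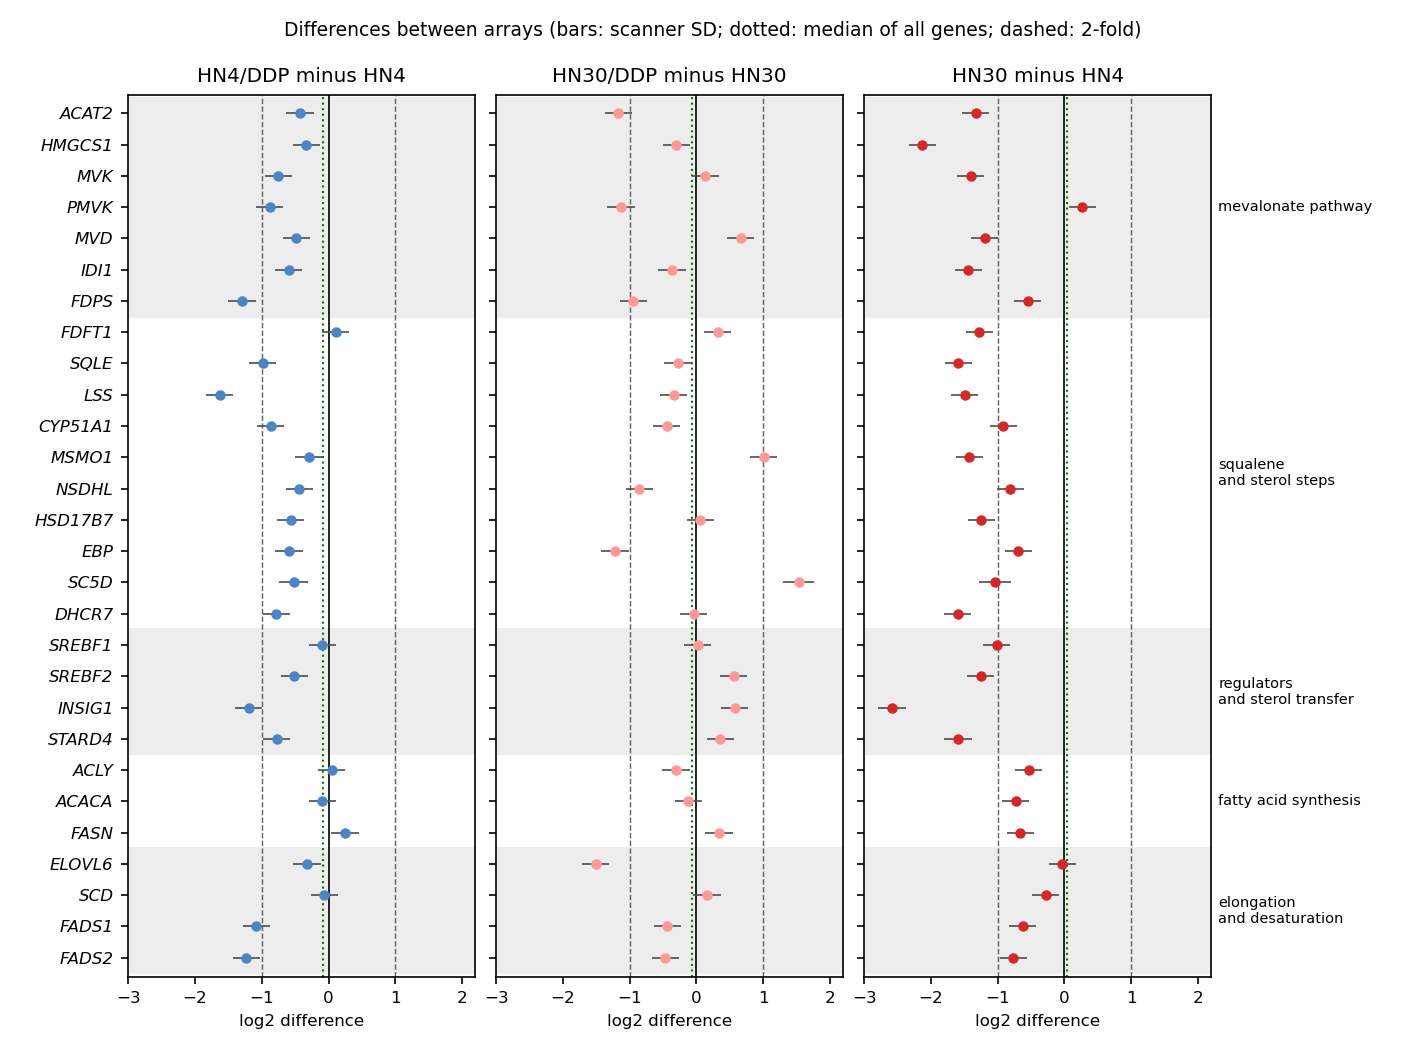
Log2 difference of each of the 28 genes in HN4/DDP against HN4, HN30/DDP against HN30 and HN30 against HN4, with bars for the scanner SD, which leaves out variation between cultures, a dotted line for the median of all genes well above background on both arrays and dashed lines at 2-fold. The points lie mostly left of 0 in HN4/DDP (25 of 28) and in HN30 against HN4 (27 of 28), and on both sides in HN30/DDP (16 below and 12 above).

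With the scaling used here, 15 members were lower in both derivatives, against 34.8% of the 22149 genes well above background on all arrays, and 2 were higher in both, FASN and FDFT1. A further 10 were lower in HN4/DDP and higher in HN30/DDP, against 22.6% of those genes, and ACLY was the 1 member with the opposite pattern. No member was beyond 2-fold lower in both derivatives, against 1.86% of those genes. The difference in HN30/DDP exceeded that in HN4/DDP for 21 of the 28 members, against 49.0% of those genes. These counts were not recomputed under the alternatives, and the direction in HN30/DDP depended on the alternative for 14 members. With median centring the members' median was lower in HN30/DDP (-0.61) than in HN4/DDP (-0.50), with all genes at -0.48 and -0.05. FDPS was then beyond 2-fold lower in both, at -1.36 and -1.26. HN4 held the highest level for 23 members, against 17.5% of the 22149 genes, while the lowest level was in HN30/DDP for 14 members, against 35.1%, and in HN30 for 12, against 22.4%. Between the derivatives themselves, 25 members were lower in HN30/DDP than in HN4/DDP, against 47.4% of all genes well above background on both arrays, with a median of -0.59 against 0.04. Under every alternative 18 members stayed below 0 and 1 above 0, and the direction of 9 depended on the alternative. Of the 28, 7 were beyond 2-fold lower, against a background of 10.7%, and SC5D was beyond 2-fold higher, against 16%. The count of 7 was 13 with median centring and 4 after quantile normalization or removal of the brightness trend, and SC5D was not beyond 2-fold under 6 of the alternatives.

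**Figure D3:**
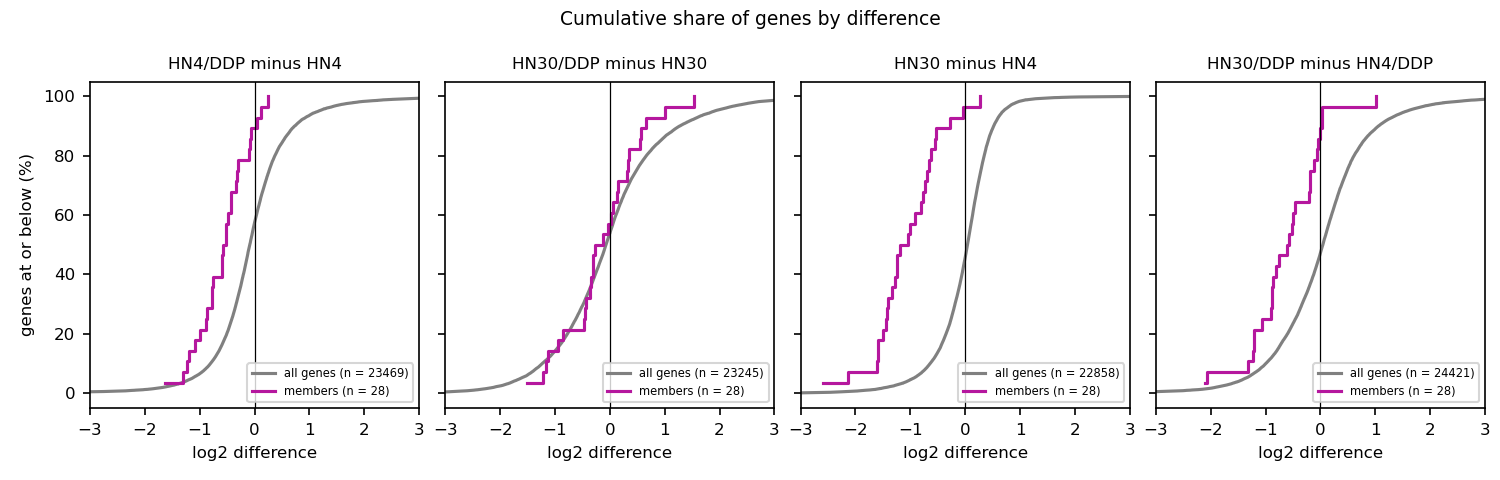
Cumulative share (%, vertical axis) of the 28 members and of all genes well above background on both arrays with a log2 difference at or below the value on the horizontal axis, for 4 pairs of single arrays. The curve of the members lies left of that of all genes for HN4/DDP against HN4 (medians -0.54 and -0.09) and most widely for HN30 against HN4 (-1.12 and 0.04), and close to it for HN30/DDP against HN30 (-0.20 and -0.07).

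The mevalonate pathway turns acetyl-CoA into the isoprenoid units of sterols, and all 7 of its measured members were lower in HN4/DDP than in HN4, with a median of -0.60. HMGCS1, which makes hydroxymethylglutaryl-CoA, had levels of 4.15 in HN4 and 3.82 in HN4/DDP, against 2.02 in HN30 and 1.72 in HN30/DDP. Both arrays of the HN30 line were thus below both of the HN4 line, by 2.13 between the parental lines, which is 4.38-fold, while each derivative was within 0.33 of its parent with the scaling used here. With median centring HN30/DDP was at -0.71. FDPS, farnesyl diphosphate synthase, showed another order, with 6.48 in HN4 and 5.18 in HN4/DDP, against 5.93 in HN30 and 4.98 in HN30/DDP. Here both derivatives were below both parental lines, with differences of -1.30 in HN4/DDP (2.46-fold) and -0.94 in HN30/DDP (1.92-fold), the latter ranging from -1.36 to -0.37 under the alternatives.

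PMVK had levels of 3.14 in HN4 and 2.26 in HN4/DDP, against 3.41 in HN30 and 2.28 in HN30/DDP, so both derivatives were again below both parents. Its differences were -0.88 and -1.13. ACAT2, the thiolase that joins acetyl-CoA units, was measured at 5.65 in HN4 and 5.23 in HN4/DDP, against 4.33 in HN30 and 3.16 in HN30/DDP, with differences of -0.43 in HN4/DDP and -1.17 in HN30/DDP. MVD, mevalonate diphosphate decarboxylase, was at 1.07, 0.59, -0.12 and 0.54 in the same order of arrays, lower by 0.48 in HN4/DDP and higher by 0.66 in HN30/DDP. IDI1, the isomerase of isopentenyl diphosphate, differed by -0.60 and -0.37 and MVK, mevalonate kinase, by -0.75 and 0.13, and both were more than 2-fold lower in HN30 than in HN4 (-1.44 and -1.40).

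Of the 10 squalene and sterol genes, 9 were lower in HN4/DDP (median -0.58) and all 10 were lower in HN30 than in HN4 (median -1.26). LSS, lanosterol synthase, which closes the ring system of the sterols, had levels of 4.12 in HN4 and 2.49 in HN4/DDP, against 2.63 in HN30 and 2.29 in HN30/DDP. HN4 stood apart from the 3 other arrays. HN4/DDP was lower than HN4 by 3.09-fold (-1.63), the widest such difference among the members, and by -1.06 at the least under the alternatives. A second LSS probe, with lower levels on every array, differed by only -0.48 in HN4/DDP, and in HN30/DDP by 1.96, where the probe used here differed by -0.34, so the probes disagreed. SQLE, squalene epoxidase, was at 5.48 in HN4 and 4.50 in HN4/DDP, against 3.89 in HN30 and 3.61 in HN30/DDP. Both arrays of the HN4 line were above both of the HN30 line, and SQLE was lower by 1.59 in HN30 than in HN4.

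DHCR7, the last reductase of the pathway, was at 7.03 in HN4 and 6.25 in HN4/DDP, against 5.43 in HN30 and 5.39 in HN30/DDP. Its differences were -0.78 and -0.04, the latter ranging from -0.45 to 0.54 under the alternatives. EBP, a sterol isomerase, had levels of 6.57, 5.98, 5.88 and 4.67 in that order and was lowest in HN30/DDP, at -1.22 against HN30 and -0.59 in HN4/DDP against HN4. NSDHL, which takes part in removing the methyl groups of lanosterol, differed by -0.44 and -0.85, and CYP51A1, the lanosterol demethylase, by -0.87 and -0.45. FDFT1, squalene synthase, was 1 of the 2 members higher in both derivatives, by 0.11 and 0.32, and the second of these values ranged from -0.10 to 0.82 under the alternatives.

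SC5D and MSMO1, which both act after lanosterol, were the 2 members beyond 2-fold higher in HN30/DDP. SC5D, the sterol C5 desaturase, had levels of -2.13 in HN4 and -2.65 in HN4/DDP, against -3.17 in HN30 and -1.64 in HN30/DDP. HN30 was thus the lowest array and HN30/DDP the highest, with a difference of 1.53 (2.89-fold) in the HN30 line and -0.52 in the HN4 line. MSMO1, the methylsterol monooxygenase, was at 1.41, 1.12, -0.01 and 1.00 in the same order. With its difference of 1.01, HN30/DDP lay near HN4/DDP and below HN4. Under the alternatives the difference in HN30/DDP was 0.59 to 1.15 for MSMO1 and 0.84 to 1.53 for SC5D, so that either fell short of 2-fold under some of them. HSD17B7 differed by -0.57 and 0.06, and its 4 probes ranged from -0.70 to -0.39 in HN4/DDP. In HN30/DDP 3 of them ranged from 0.06 to 0.49, and the fourth was not well above background in HN30. A near-identical gene copy makes the HSD17B7 values uncertain.

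The regulators and STARD4 differed most between the parental lines. INSIG1 and SREBF2 were lower in HN4/DDP and higher in HN30/DDP under every alternative, while the direction of STARD4 and SREBF1 in HN30/DDP depended on the alternative. The median of the 4 was -1.42 in HN30 against HN4, -0.64 in HN4/DDP and 0.46 in HN30/DDP with the scaling used here. INSIG1, which retains SCAP and is itself a target of the SREBPs, had levels of 3.75 in HN4 and 2.55 in HN4/DDP, against 1.17 in HN30 and 1.74 in HN30/DDP. The arrays of the HN4 line were both above those of the HN30 line, with 6-fold between the parental lines (-2.58), the widest difference of any member. The derivatives lay between the parents, at -1.20 in HN4/DDP (2.29-fold) and 0.57 in HN30/DDP (1.49-fold). SREBF2 had the same order, with 2.65 in HN4 and 2.14 in HN4/DDP, against 1.40 in HN30 and 1.95 in HN30/DDP. Its differences were -0.51 in HN4/DDP, 0.56 in HN30/DDP and -1.25 between the parental lines.

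STARD4, which carries cholesterol between membranes, was at 1.10 in HN4 and 0.32 in HN4/DDP, against -0.50 in HN30 and -0.14 in HN30/DDP. It was lower by 0.77 in HN4/DDP and higher by 0.36 in HN30/DDP, though -0.06 with median centring. SREBF1 was at 5.63, 5.54, 4.62 and 4.64 in that order, so that the derivatives were nearly level with their parents (-0.09 and 0.02) and the parental lines were 2.02-fold apart. A second SREBF1 probe was higher by 0.16 in HN30 than in HN4 and differed by -0.16 and -0.41 in the derivatives, so that the probes disagree between the parental lines. The difference of SREBF1 in HN30/DDP ranged from -0.39 to 0.56 under the alternatives. Of INSIG1, SREBF2, STARD4 and SREBF1 in HN30/DDP, the first pair stayed above 0 under every alternative, at no less than 0.16 and 0.14. Of the promoters printed above, that of SREBF2 held the sterol regulatory element and that of INSIG1 an E-box 55 bases before the start.

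The 3 genes of fatty acid synthesis differed little in the derivatives. FASN, fatty acid synthase, had levels of 5.88 in HN4 and 6.13 in HN4/DDP, against 5.22 in HN30 and 5.56 in HN30/DDP, and was higher by 0.25 and 0.34, the latter ranging from -0.08 to 0.89 under the alternatives. ACLY, which supplies cytosolic acetyl-CoA, differed by 0.05 and -0.31, and ACACA, which makes malonyl-CoA, by -0.09 and -0.12. A second ACACA probe differed by 0.42 and -0.52, so the probes of this gene disagreed in HN4/DDP. All 3 were lower in HN30 than in HN4, by 0.54 to 0.73, which is less than 2-fold.

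Among the elongation and desaturation genes, the 2 fatty acid desaturases of polyunsaturated chains lay beyond 2-fold in HN4/DDP with the scaling used here. FADS1 had levels of 4.59 in HN4 and 3.51 in HN4/DDP, against 3.96 in HN30 and 3.53 in HN30/DDP, with differences of -1.08 (2.12-fold) and -0.44. FADS2, its neighbour on chromosome 11, was at 3.26, 2.03, 2.49 and 2.03 in the same order, with differences of -1.23 (2.35-fold) and -0.47. For both genes HN4 was the highest array, HN30 the next, and the derivatives were nearly equal to each other. In HN30/DDP the direction held under every alternative for FADS2 but not for FADS1, which reached 0.03.

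ELOVL6, which lengthens palmitate, was at 2.34 in HN4 and 2.01 in HN4/DDP, against 2.30 in HN30 and 0.80 in HN30/DDP. The HN30/DDP array stood alone, 2.84-fold below HN30 (-1.51), and the parental lines differed by -0.03. A second ELOVL6 probe differed by -0.82 in HN30/DDP, in the same direction but less than 2-fold, and by -0.74 in HN4/DDP, where the first probe gave -0.32. SCD, which makes oleate and is a common readout of SREBP-1, was at 2.53, 2.47, 2.25 and 2.41 in that order. Its differences of -0.06 and 0.16 were smaller than the scanner SD with this scaling, though the second ranged from -0.26 to 0.50 under the alternatives, and it had the narrowest range of levels among these 4 genes.

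The derivatives against their parents, with 2 arrays on each side, were fitted with limma for 29520 genes with the cell line as block. It called 0 genes at an adjusted p below 0.05 (Benjamini-Hochberg over all genes), with 2486 genes, or 8.42%, below 0.05 before adjustment. Of the members, 21 had a negative estimate and 0 were called. FDPS had an estimate of -1.12 ± 0.303 (SE) and an adjusted p of 0.520 by limma, and EBP one of -0.91 ± 0.323 and an adjusted p of 0.585. These were the 2 members below 0.05 before adjustment, and over all members the adjusted p of limma was 0.520 to 0.994. The other contrast of 2 arrays with 2, the HN30 line against the HN4 line with resistance as block, was added after seeing the data. limma again called 0 genes, with 684, or 2.32%, below 0.05 before adjustment. Of the members, 27 had a negative estimate, with a median of -0.81, and 10 were below 0.05 before adjustment, but every member had an adjusted p of 1 by limma. Either fit leaves 1 degree of freedom for the error of each gene, and with 1 culture per condition its p-values do not measure the spread between cultures.

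Of 41 other genes of sterol and fatty acid metabolism, listed by function, 5 were beyond 2-fold higher and 6 lower in HN4/DDP, and 11 higher and 3 lower in HN30/DDP. The background was 9.39% higher and 8.57% lower in the former, and 19.7% and 13.3% in the latter. Their medians were 0.01 and 0.04. The 4 genes that process SREBPs, SCAP, INSIG2 and the proteases MBTPS1 and MBTPS2, differed by between -0.36 and 0.17 in either derivative, so the carrier and proteases stayed within 2-fold. Both sterol exporters were higher in both derivatives. ABCA1, which loads cholesterol onto apolipoprotein, had levels of -4.97 in HN4 and -0.12 in HN4/DDP, against -3.79 in HN30 and -0.16 in HN30/DDP. It was not well above background in HN4, so against the lowest signal well above background there it was at least 24.3-fold higher in HN4/DDP, and the difference in HN30/DDP was 3.63. ABCG1, a related transporter, was at -4.29, -0.96, -5.12 and 0.24 in that order. It differed by 3.33 in HN4/DDP and, not being well above background in HN30, was at least 28.7-fold higher in HN30/DDP by the same bound.

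MYLIP, a ubiquitin ligase named after its values were seen, differed by -0.32 in HN4/DDP and was 3.51-fold higher (1.81) in HN30/DDP. MLXIPL, a glucose-responsive transcription factor of lipid synthesis, had levels of -0.91 in HN4 and 0.64 in HN4/DDP, against -1.49 in HN30 and 3.44 in HN30/DDP, with differences of 1.54 and 4.92. ELOVL3, an elongase, differed by 1.11 and 2.26. SOAT1, which esterifies cholesterol for storage, was lower in both derivatives, at 1.04, -0.24, 0.86 and -0.53, by 1.28 and 1.40. HACD2, a dehydratase of fatty acid elongation, was also lower in both, with differences of -1.06 and -1.64.

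HACD3, another elongation dehydratase, had levels of 5.74 in HN4 and 2.37 in HN4/DDP, against 5.78 in HN30 and 5.55 in HN30/DDP, so that HN4/DDP alone stood apart (-3.37). ACSL3 and ACSL5, which activate fatty acids with coenzyme A, had opposite signs in HN4/DDP, at -1.50 and 2.27, and differed by 0.18 and -0.04 in HN30/DDP. ELOVL4, an elongase of very long chains, named after its values were seen, was at -0.06, -5.19, -0.55 and 0.75 in the order of the arrays above. It was not well above background in HN4/DDP, at least 29.7-fold lower there than in HN4, and higher by 1.30 in HN30/DDP. TMEM97, a sterol-responsive membrane protein, was lower in both derivatives and differed by -0.94 in HN4/DDP and -1.26 in HN30/DDP.

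**Figure D4:**
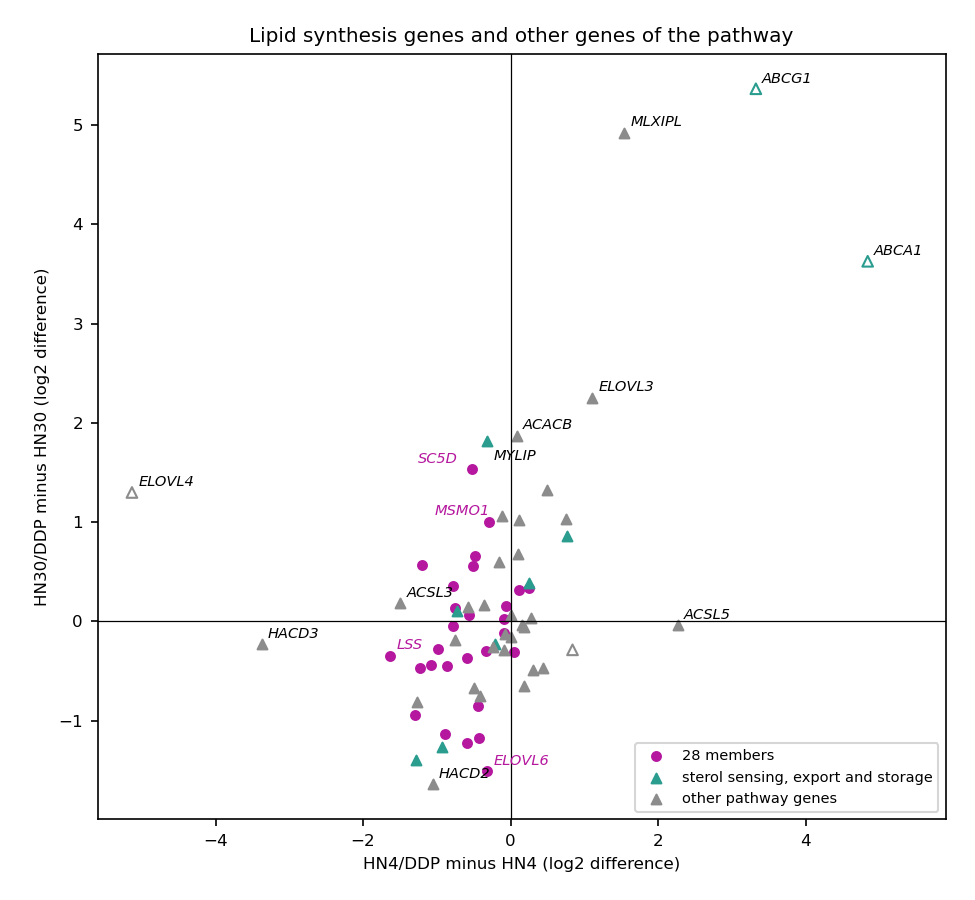
Log2 difference in HN4/DDP against HN4 (horizontal axis) and in HN30/DDP against HN30 (vertical axis) of the 28 members (circles) and of 41 other genes of the pathway (triangles), each point from 4 single arrays, with open triangles for genes not well above background on every array. The members lie within 2 of 0 on both axes, while ABCA1, ABCG1 and MLXIPL lie far up and to the right.

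The proliferation markers differed most in the HN30 line. All 10 of them were beyond 2-fold lower in HN30/DDP than in HN30, with a median of -1.96, while in HN4/DDP all 10 were below HN4 with a median of -0.39 and 1 of them beyond 2-fold. Between the parental lines their median was 0.23, with 0 beyond 2-fold, beside the members' median of -1.12. Between the derivatives all 10 were lower in HN30/DDP than in HN4/DDP, 7 of them beyond 2-fold, with a median of -1.35 beside the members' -0.59. The part of cell growth in the members' differences was not tested. Of markers of other cell types, well above background were 1 of 2 leukocyte genes on 3 arrays and 2 of 2 in HN30/DDP, where CD3E was also measured. Of the 3 mesenchymal genes 2 were well above background on every array and COL1A2 on none, and 1, COL1A1, was beyond 2-fold higher in both derivatives (1.73 and 2.42). Of the 2 hepatocyte genes APOA1 was well above background on every array and ALB on none. Of the 2 endothelial genes, CDH5 was well above background on every array and PECAM1 in HN4 and HN30/DDP only. The part of these genes in the members' differences was not tested.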

How the data were processed

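Total RNA from HN4, HN4/DDP, HN30 and HN30/DDP was labelled with Cy3 and hybridised to Agilent human expression arrays, 1 array per sample. The authors deposited scanner files with the processed intensity of each spot, made with Agilent Feature Extraction 10.7.1.1 per the labels, after subtraction of the background and with no normalization between arrays. The authors' deposited log2 table, a second source, had a median of 4.65 in every array. The members' median differences in it lay near those after quantile normalization (-0.50 and -0.49 in HN4/DDP, 0.17 and 0.16 in HN30/DDP). Its steps are not given in the sources used here.

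Spots marked as outliers (140 to 204 of the 60901 spots per array that are not controls) were left out, each array was scaled on the log2 scale by subtracting its 75th percentile, spots of a probe were averaged to 58201 probes, and each gene took the probe with the highest mean. The 75th percentile of the intensity was 435 to 481. Probes with at least 5 spots had a median SD between spots of 0.023 to 0.028 (log2). The members have 35 probes, 5 members having more than 1, and all 28 matched RefSeq by accession. Groups came from the sample titles. The error of a single difference came from the scanner's own error estimate per spot.

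A gene counted as higher or lower beyond a log2 difference of 1 with the brighter array well above background. Other pathway genes were named where they lay beyond 1 in the same direction in both lines, or were among the 3 largest differences in each direction in a line and well above background on both arrays. All members were named, and marker genes were to be given by counts. Outside this rule ELOVL4, MYLIP, SCAP, INSIG2, MBTPS1, MBTPS2 and the markers named with values were chosen after their values were seen. A gene dim on an array was set against the lowest signal well above background there, which gives a bound. HACD2 and HACD3 appear on the array under the names PTPLB and PTPLAD1.

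limma 3.58.1 (R 4.3.3, lmFit and eBayes with a trend) compared derivatives with parents with the cell line as a block, and the lines with resistance as a block. It was also run on simulated data with the same spread in every gene, which does not show how it performs on these arrays. Other steps used Python 3.11.15, numpy 2.4.6, pandas 2.3.3 and statsmodels 0.14.6. Alternatives were normexp background correction (offset 50), median centring, quantile normalization, the deposited table, the mean of all probes of a gene, a pseudocount of 16, a bound for dim signals, a stricter filter, a threshold of 2, and, for limma, no block or no filter. Removal of the trend with brightness by lowess, the alternatives for comparisons between the lines, the limma fit of the lines and the counts of members below 0 were chosen after seeing the data. The members and lists were chosen with earlier results of these data known.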

Additional observations from a re-analysis of the deposited data

Results flagged for a closer look

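In 4 members the difference between derivative and parent had opposite signs in the 2 lines, each beyond 2 scanner SDs, and with 1 array per condition this gap was not tested. The difference in HN30/DDP minus that in HN4/DDP was 2.05 for SC5D, 1.77 for INSIG1, 1.14 for MVD and 1.07 for SREBF2 (log2). All 4 were lower in HN4/DDP and higher in HN30/DDP, and all 4 kept both signs under every alternative tried. With median centring, however, INSIG1 (0.16), MVD (0.25) and SREBF2 (0.14) in HN30/DDP lay within 2 scanner SDs of 0, and so did SC5D in HN4/DDP (-0.33) with normexp background correction. The difference in HN30/DDP ranged from 0.84 to 1.53 for SC5D, 0.16 to 0.83 for INSIG1, 0.25 to 0.77 for MVD and 0.14 to 0.83 for SREBF2.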

How the results depend on the processing

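Of 155 counts and medians recomputed under the alternatives, 127 stayed close to the reported value and 28 moved, and the causes of the moves were not tested. A count could not be scored as reversed, and a median only if its reported value was beyond 1, so reversals are not tallied. The median of HN30/DDP against HN30, reported as -0.20, was above 0 under some alternatives. The values of HN4/DDP against HN4 and of HN30 against HN4 moved only with a threshold of 2 (log2), by which fewer members qualify by construction. That threshold left 0 members lower in HN4/DDP, 0 higher and 0 lower in HN30/DDP, 2 lower in HN30 than in HN4 (background 1.91%), and 0 higher and 2 lower (background 2.68%) in HN30/DDP than in HN4/DDP. For HN30/DDP against HN30, the members beyond 2-fold higher were 0 with normexp, 1 with median centring and 1 with a pseudocount of 16, and those lower were 1 each with quantile normalization, the deposited table and removal of the brightness trend. The median was -0.61 with median centring, 0.16 with quantile normalization, 0.17 in the deposited table and 0.21 without the trend. Members below 0 were 23 with median centring, 10 in the deposited table and 9 without the trend, against 16 with the scaling used here. For HN30/DDP against HN4/DDP, 0 members were higher with normexp, median centring, quantile normalization, the deposited table, the pseudocount and removal of the trend. There, 13 were lower with median centring, at a median of -0.94, and 4 each with quantile normalization and without the trend.

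limma called 0 members with no block, with no filter and with normexp. Of 1008 values of single members, 819 stayed within the scanner SD of the reported one and 189 moved. No paired analysis was possible because each condition has 1 array and so 1 replicate number, apart from limma's block by cell line. The members were well above background throughout, but the value of SC5D depended on how low signal was handled. Its difference in HN30/DDP was 1.53 as reported, 0.84 with normexp and 1.27 with a pseudocount of 16. The single array per condition limited all members.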
